A study of Mus musculus with 36 samples.

Results

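In cells of the deletion line C1.1 kept in normoxia, RNA of the nuclear fraction was compared with RNA of the cytoplasmic fraction, in 3 libraries each. The libraries are those labelled C1.1_0hr_nuc and C1.1_0hr_cyt, 6 of the 36 of the series, and every row of the count table was taken (26400, of which 16682 passed the filter on low counts). C1.1 is a clonal line made from C166, a mouse yolk sac endothelial cell line. A single miR-466c hairpin in an intron of Sfmbt2 was removed with CRISPR, and the other miR-466c hairpins of that intron were left. Both fractions thus carry the deletion and were made from cells that had no hypoxia. Nucleus was also compared with cytoplasm in C1.1 after 2h and 24h of hypoxia and in unedited C166 in normoxia. These comparisons served to show how far the values held elsewhere. Ribosomal RNA was removed from equal amounts of total RNA of each fraction before stranded sequencing, so that a difference here is one of an RNA's share within its fraction and not of its amount per cell. Nothing in the labels tells whether the numbered libraries stem from different cultures. The tests rest on the spread among numbered libraries within groups, estimated over all 36 libraries of the series in 12 groups.

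Cells make their RNA in the nucleus, where messenger RNAs are capped, spliced and polyadenylated before they are exported through nuclear pores and translated. Some long noncoding RNAs stay behind and build nuclear bodies, small nucleolar RNAs (snoRNAs) guide modification of ribosomal RNA in the nucleolus, and the hairpins that hold microRNAs are cut from long primary transcripts before export. Y RNAs and vault RNAs are short products of RNA polymerase III that are found mainly in the cytoplasm, and mitochondria transcribe their own genome. Messenger RNAs of secreted and membrane proteins are translated on the rough endoplasmic reticulum, whose membrane continues into the outer membrane of the nucleus.

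The short RNAs at both ends of the comparison are printed here because their rows had some of the largest differences. Rny1 (chr6:47788069-47788180, minus strand) and Rny3 (chr6:47781624-47781725, plus strand) are Y RNAs of 112 and 102 bases, and capitals mark the run of T that closes each gene. Both were far lower in the nucleus.
Rny1: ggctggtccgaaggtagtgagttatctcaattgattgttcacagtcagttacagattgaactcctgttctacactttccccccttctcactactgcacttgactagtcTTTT
Rny3: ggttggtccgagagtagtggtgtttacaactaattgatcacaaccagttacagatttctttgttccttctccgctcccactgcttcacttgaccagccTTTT
Snord17 (chr2:144265979-144266216, minus strand, 238 bases) and Snord22 (chr19:8725866-8725991, plus strand, 126 bases) are C/D box snoRNAs, and Snora23 (chr7:110046364-110046547, plus strand, 184 bases) is an H/ACA box snoRNA. These 3 were far higher in the nucleus. Capitals mark CTGA within the last 15 bases, the D box of the first class, and ACA within the last 8 bases, the closing motif of the second, both read on the RNA's own strand.
Snord17: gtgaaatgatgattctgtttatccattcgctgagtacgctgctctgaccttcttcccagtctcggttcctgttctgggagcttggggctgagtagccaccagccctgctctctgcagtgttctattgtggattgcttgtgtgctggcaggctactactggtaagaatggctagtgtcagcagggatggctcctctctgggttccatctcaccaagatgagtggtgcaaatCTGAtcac
Snord22: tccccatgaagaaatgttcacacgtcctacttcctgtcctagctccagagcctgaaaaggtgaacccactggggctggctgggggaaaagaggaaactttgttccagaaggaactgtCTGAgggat
Snora23: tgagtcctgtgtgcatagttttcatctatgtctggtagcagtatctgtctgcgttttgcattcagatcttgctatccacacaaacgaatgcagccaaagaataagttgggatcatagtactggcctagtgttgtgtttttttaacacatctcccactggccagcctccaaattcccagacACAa
CTGA stood there in 41 of 45 Snord rows tested (91.1%) and in 1 of 23 Snora rows, and ACA stood there in 23 of 23 Snora rows and in 6 of 45 Snord rows (13.3%). Coordinates and sequences of these RNAs are those of GENCODE M21 on GRCm38, the build the files use.

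Rows named for microRNAs count fragments that cover the hairpin in these libraries of long RNA, so they follow the primary transcript and not the mature miRNA. Of 73 such rows that were higher in the nucleus, 50 matched a RefSeq hairpin (GRCm38.p6), which gave 85 mature sequences. Counting only the mature arms that RefSeq annotates on these rows, 6 seeds (bases 2 to 8, in capitals) were shared by more than 1 row. The group with the most rows was let-7, and the pairs of Mir221 with Mir222 and of Mir27a with Mir27b each shared a seed.
mmu-let-7a-5p: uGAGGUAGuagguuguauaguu
mmu-let-7b-5p: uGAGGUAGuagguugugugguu
mmu-let-7c-5p: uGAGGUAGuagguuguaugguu
mmu-miR-221-3p: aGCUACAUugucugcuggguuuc
mmu-miR-222-3p: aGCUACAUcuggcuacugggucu
mmu-miR-27a-3p: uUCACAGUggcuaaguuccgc
mmu-miR-27b-3p: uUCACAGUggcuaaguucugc
The seed GAGGUAG was annotated on 4 rows, and the hairpin of Mirlet7a-2 holds the same letters in an arm not annotated there. Of the 4 rows, Mirlet7a-1 lies on chromosome 13, and Mirlet7c-2 and Mirlet7b on chromosome 15. Mir221 and Mir222 lie on chromosome X.

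The total count was 18286722, 15864280 and 19650550 in the nuclear libraries, against 27497387, 25495610 and 28404375 in the cytoplasmic ones, and 17719 to 18995 rows had a count in the nucleus, against 17070 to 18100 in the cytoplasm. The labels call the line endothelial, and the genes that define endothelium were at or near 0. Tie1 had 0 counts in all 6 libraries, Cdh5 had 0 in the nucleus and 2 in the cytoplasm, Kdr had 0 and 4, and Pecam1 had 3, 1 and 6 in the nuclear libraries, against 10, 0 and 4 in the cytoplasmic ones. Eng, Esam, Egfl7 and Ecscr had between 100 and 241 counts in at least 1 fraction. The 12 endothelial markers with a row summed to between 7.25 and 8.31 CPM (counts scaled to a common library total) in the nucleus and between 6.94 and 8.11 in the cytoplasm. Col1a2, Col1a1 and Acta2 of the smooth muscle and mesenchyme list were among the strongly counted genes, and that list of 18 summed to 4511 to 4691 CPM in the nucleus, against 2339 to 2463 in the cytoplasm. The 9 blood markers summed to at most 5.19 CPM in the nucleus and 1.82 in the cytoplasm, and the 5 epithelial markers to at most 0.875 and 0.706. Unedited C166 in normoxia had 0 counts of Tie1 and Cdh5 as well, and its endothelial markers summed to between 4.97 and 8.54 CPM per library. Flt1 differed, with 92 nuclear and 88 cytoplasmic counts in C166, against 0 and 3 in C1.1. Fewer cells of a type and less RNA per cell cannot be told apart in bulk libraries.

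Sfmbt2, whose intron held the removed hairpin, had 20.7, 20.5 and 24.8 CPM, here and below with the library total multiplied by its TMM factor, in the nuclear libraries, against 20.6, 22.8 and 25.9 CPM in the cytoplasmic ones. The groups overlapped and the gene did not pass the test (log2 difference -0.07 ± 0.14 SE, adjusted p = 0.689), with a sign that turned under other scalings. These counts come from outside the removed hairpin and do not check the deletion.

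Nucleus and cytoplasm differed in most of the transcriptome by these counts, 57.6% of the genes tested. Of 16682 genes tested, 4772 (28.6%) were higher in the nucleus and 4836 (29.0%) were lower at an adjusted p below 0.05 in edgeR's quasi-likelihood test. At least 2-fold differences were found in 3129 genes (18.8%) that were higher and 2275 (13.6%) that were lower, and the tails were unequal, with 1039 genes at least 8-fold higher and 51 at least 8-fold lower. The values of the nuclear libraries lay wholly above or below those of the cytoplasmic ones in 11942 genes (71.6%). The median of all genes was 0.03 on the log2 scale, which sets the zero of what follows. With RLE or upper-quartile factors, or with DESeq2, that median lay at 0.23 to 0.24, and higher genes made up 59.4% to 59.7% of those called in place of 49.7%.

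The makeup of both fractions differed in a few very abundant RNAs. Ahnak, which codes for a giant scaffold protein, took the largest share of counts in the nucleus, 1.81% ± 0.116 (SD, n = 3), against 0.203% ± 0.00777 in the cytoplasm. Malat1 took 1.41% ± 0.0833 in the nucleus, against 0.266% ± 0.00173 in the cytoplasm. Rmrp, the RNA of RNase MRP, took 0.831% ± 0.0801, against 0.156% ± 0.0319. In the cytoplasm the most counted RNA was Rn7sk, with 0.283% ± 0.00995 in the nucleus, against 2.05% ± 0.264 in the cytoplasm, and Eef1a1, the elongation factor that brings aminoacyl-tRNA to the ribosome, was high in both, at 0.676% ± 0.0188 in the nucleus and 1.18% ± 0.0805 in the cytoplasm. Ribosomal protein mRNAs together took 3.09% ± 0.183 in the nucleus and 7.12% ± 0.343 in the cytoplasm. For each of these shares the 3 nuclear and 3 cytoplasmic libraries did not overlap, and the exact two-sided permutation test of the libraries gave p = 0.1, the smallest it allows.

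Long noncoding RNAs known to stay in the nucleus were higher there. Neat1, the scaffold of paraspeckles, had 11876, 11281 and 13166 CPM in the nuclear libraries, against 372, 341 and 339 CPM in the cytoplasmic ones, a 34.5-fold difference (log2 difference 5.11 ± 0.14 SE, adjusted p = 1.62e-25). No cytoplasmic library came near any nuclear one. Malat1, an RNA of nuclear speckles, had 12894, 12335 and 13915 CPM in the nucleus, against 2723, 2719 and 2655 CPM in the cytoplasm (4.83-fold, adjusted p = 4.24e-15). Kcnq1ot1, which silences an imprinted cluster in cis, had 663, 688 and 741 CPM, against 73.1, 67.6 and 78.4 CPM (9.55-fold, adjusted p = 1.43e-20). In these RNAs the groups were wide apart, and Malat1 kept the highest cytoplasmic level. Mir17hg, the host transcript of the miR-17-92 cluster, had 64.2, 65.3 and 74.4 CPM in nuclear and 4.12, 5.14 and 4.04 CPM in cytoplasmic libraries (15.3-fold), and Ftx had 84.4, 85.2 and 98 CPM, against 19, 19.7 and 20.1 CPM (4.55-fold). Of 17 such RNAs tested, 12 were higher, all at least 2-fold, 0 were lower and 5 did not pass, with a median log2 difference of 2.37, beside 28.6% higher and a median of 0.03 over all genes. Xist, Jpx, Meg3, Rian and Mirg were the ones that did not pass, and Meg3 had 0 counts in the 6 libraries. Reads of these RNAs and of genes on the other strand could be told apart only if the counting used strand, which is not stated. Dnm3os, a noncoding RNA that holds miRNA hairpins, was also higher (10.4-fold, 69.5, 72.3 and 70.9 CPM in the nucleus, against 7.12, 6.93 and 6.49 CPM).

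**Figure D1:**
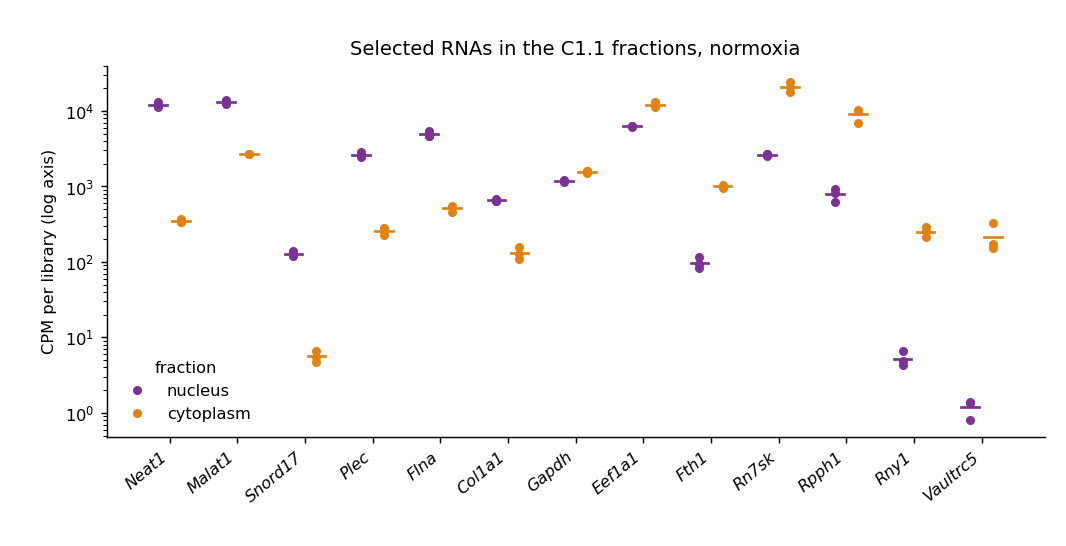
CPM per library (log axis) of selected RNAs in nuclear (purple, left of each pair) and cytoplasmic (orange, right) libraries of C1.1 in normoxia, where points are libraries and lines are means of 3. Neat1 lies between 11281 and 13166 CPM in the nuclear libraries and between 339 and 372 CPM in the cytoplasmic ones, and Rn7sk, Rpph1, Rny1 and Vaultrc5 lie the other way.

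Short RNAs of the nucleolus and of Cajal bodies followed the same direction. Snord17 had 120.3, 139 and 124 CPM in the nuclear libraries, against 6.52, 5.57 and 4.70 CPM in the cytoplasmic ones (22.8-fold, log2 difference 4.51 ± 0.22, adjusted p = 7.78e-19). Snora73b, an H/ACA box snoRNA, had 469.6, 509 and 490.2 CPM, against 26.9, 29.9 and 19.4 CPM (19.3-fold). Snord22, whose host transcript codes for no protein, had 65.3, 69.7 and 65.5 CPM, against 6.07, 6.73 and 4.77 CPM (11.4-fold). The groups of these snoRNAs did not overlap. Snora23 had 39.8, 50.3 and 45.0 CPM, against 4.91, 4.06 and 3.19 CPM (11.1-fold). Scarna2 and Scarna6, which guide modification of spliceosomal RNAs in Cajal bodies, were 9.97-fold and 20.4-fold higher. By annotated class, 99 of 208 snoRNA rows were higher (47.6%, beside 28.6% over all genes) and 0 lower (median log2 difference 1.95). Of 18 scaRNA rows 10 were higher (55.6%) and 0 lower (median 2.11). Of 339 snoRNA and 22 scaRNA rows these 208 and 18 passed the filter, which a row could do through nuclear libraries alone. Among the snoRNA rows tested 7 had 0 counts in the cytoplasm and 0 had none in the nucleus. The splits and medians of both classes thus cannot be separated from the filter. Among Snord rows 24 of 45 were higher (median 2.24) and among Snora rows 11 of 23 (median 1.39). The share of counts in snoRNA rows was 0.222% ± 0.00735 in the nucleus and 0.0384% ± 0.00470 in the cytoplasm (SD, n = 3). Most snoRNAs sit in introns of other genes, and counts of a snoRNA and of the unspliced transcript around it could not be separated.

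Spliced transcripts that host snoRNAs in their introns were split. Gas5 had 870.0, 850.2 and 981 CPM in the nuclear libraries, against 293, 277 and 265 CPM in the cytoplasmic ones (3.24-fold, adjusted p = 5.23e-14), and Snhg17, Snhg12 and Snhg5 were 3.28-, 3.64- and 2.89-fold higher. Snhg18 went the other way, with 9.37, 9.19 and 13 CPM, against 41.0, 38.2 and 37.8 CPM (log2 difference -1.89 ± 0.17, adjusted p = 5.20e-12). In all, 7 of 13 hosts tested were higher and 2 lower (53.8% and 15.4%, beside 28.6% and 29.0% over all genes), with a median of 1.16. The other lower host, Snhg8, had 62.5, 57.7 and 64.6 CPM, against 85.3, 81.2 and 66.1 CPM (log2 difference -0.33), and did not pass under other scalings.

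MicroRNA hairpin rows were higher in the nucleus in 73 of 137 rows tested and lower in 0. That is 53.3% higher, beside 28.6% over all genes, and the median log2 difference was 3.16. A row could pass the filter on low counts through nuclear libraries alone, and 137 of 710 hairpin rows passed it. Of these, 25 had 0 counts in the cytoplasm and 1 had 0 in the nucleus, so the split and the median cannot be separated from the filter. The rows named here were chosen after their values were seen. Mir763 had 18.0, 12.2 and 14.5 CPM in the nuclear libraries, against 0.524, 1.71 and 1.16 CPM in the cytoplasmic ones (13.2-fold, adjusted p = 8.49e-08). Mir221 had 4.99, 5.62 and 4.83 CPM, against 0.824, 1.15 and 0.456 CPM (6.33-fold, adjusted p = 1.99e-04), and Mir222, which shares its seed and its neighbourhood, had 18 counts in all nuclear libraries, against 2 in the cytoplasmic ones. Both rows passed the test, Mir222 from few counts. Mir29a had 3.68, 2.75 and 3.89 CPM, against 0.187, 0.199 and 0.140 CPM (19.1-fold, adjusted p = 1.23e-05). Mirlet7a-1, Mirlet7b and Mirlet7c-2 had 4.90-, 8.18- and 10.8-fold more in the nucleus, from 100, 72 and 79 nuclear counts, against 28, 12 and 10 cytoplasmic ones. These rows are short and thinly counted, and these let-7 rows lie within another gene on their strand.

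Rows annotated inside introns or as single-exon loci showed the same pattern. Of 86 sense intronic rows 59 were higher (68.6%, beside 28.6% over all genes) and 0 lower (median 3.0). Of 465 loci that the annotation marks as to be experimentally checked (TEC) 335 were higher (72%) and 5 lower (median 2.85). Rows of these classes could also pass the filter through nuclear libraries alone. In the cytoplasm 7 and 26 of them had 0 counts, against 2 and 3 in the nucleus. Long intergenic RNAs were called higher no more often than genes in general, in 97 of 405 rows (24%, beside 28.6% over all genes). They were called lower in 20 (4.94%, beside 29.0%), and 288 did not pass (median 0.56). Protein-coding genes had 3169 higher and 4269 lower of 12145, with a median of -0.08 that became positive, 0.10, with DESeq2 or with RLE factors. Of 928 processed pseudogenes 137 were higher and 261 lower (28.1%, close to the 29.0% over all genes, with a median of -0.80), and their reads cannot be kept fully apart from those of the parent genes.

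**Figure D2:**
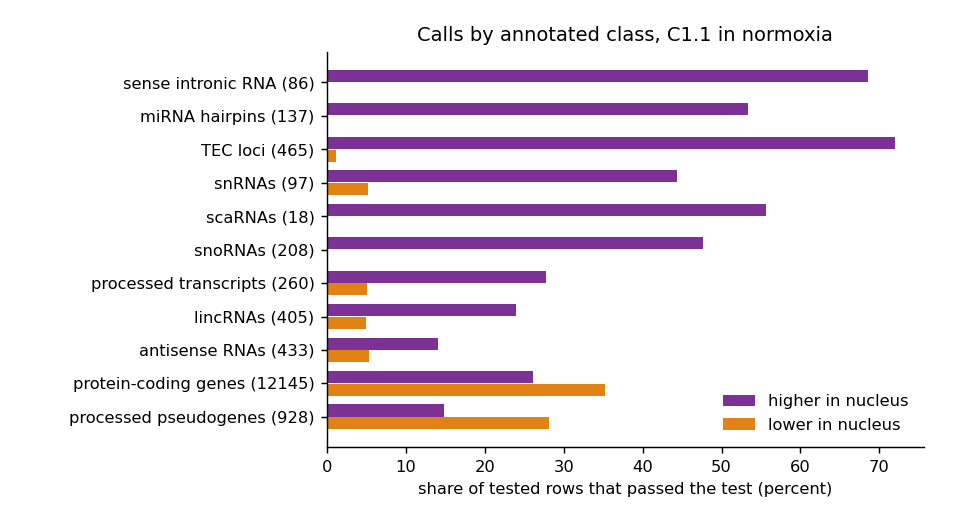
Percent of tested rows of each annotated class that passed the test as higher (purple) or lower (orange) in the nucleus, C1.1 in normoxia, with the number tested in brackets. Sense intronic, miRNA hairpin and snoRNA rows have 68.6%, 53.3% and 47.6% higher and none lower, while protein-coding genes have 26.1% higher and 35.2% lower. Rows of the noncoding classes could pass the filter on low counts through nuclear libraries alone.

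Several short RNAs made by RNA polymerase III were far lower in the nucleus. Vaultrc5, a vault RNA, had 1.41, 1.35 and 0.806 CPM in the nuclear libraries, against 326, 152 and 173 CPM in the cytoplasmic ones, 184-fold lower in the nucleus (log2 difference -7.52 ± 0.64, adjusted p = 1.14e-12). Rny1 had 4.33, 4.80 and 6.54 CPM, against 287, 258 and 214 CPM (48.2-fold lower, adjusted p = 8.01e-11). Rny3 had 6.50, 7.85 and 5.64 CPM, against 331, 399 and 322 CPM (52.9-fold lower, adjusted p = 3.13e-10). No nuclear library overlapped a cytoplasmic one in these RNAs. Of 7 listed short and long RNAs known from the cytoplasm, 5 were lower and 0 higher (median -2.04).

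Some RNAs known for work in the nucleus were also lower in the nuclear fraction. Rn7sk, which holds the elongation kinase P-TEFb inactive, had 2508, 2710 and 2656 CPM in the nuclear libraries, against 23966, 20596 and 17943 CPM in the cytoplasmic ones, 7.94-fold lower in the nucleus (log2 difference -2.99 ± 0.15, adjusted p = 8.29e-19). Rpph1, the RNA of RNase P, had 808, 935 and 620.2 CPM, against 10265, 10023 and 6948 CPM (11.5-fold lower, adjusted p = 1.39e-15), and Rprl3, a gene related to it, was 10.5-fold lower. Rmrp, the sister RNA of Rpph1, lay the other way, with 7233, 7279 and 8597 CPM, against 1722, 1843 and 1201 CPM (4.85-fold higher, adjusted p = 2.74e-08). The groups of these RNAs did not overlap. Rnu2-10, a U2 row, was lower as well (7.96, 8.55 and 6.11 CPM, against 17.5, 16.2 and 12.6 CPM, log2 difference -1.03). Rn7sk, Rpph1 and Rnu2-10 were the lower ones in a list of 86 short nuclear RNAs, of which 43 were higher, 3 lower and 40 did not pass (median 1.71). The log2 differences of Rn7sk and Rpph1 in C166 were -3.15 and -3.15, and neither passed the test of the difference between the lines (adjusted p = 0.758 and 0.619). Rpph1 and Rprl3 are related in sequence, and how the authors' counting split their reads is not known.

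Messenger RNAs made inside mitochondria were lower in the nuclear fraction. mt-Co1, a subunit of cytochrome c oxidase, had 0.0504, 0.527 and 0.142 CPM in the nuclear libraries, against 7.12, 7.25 and 7.58 CPM in the cytoplasmic ones (31.3-fold lower, adjusted p = 6.13e-11), and mt-Cytb had 0.101, 0.117 and 0.190 CPM, against 5.47, 5.3 and 4.91 CPM (36.6-fold lower). Of 9 rows of mitochondrial rRNA and tRNA 2 were lower, 0 higher and 7 did not pass (median -0.69), and both lower ones were rRNA rows, mt-Rnr1 and mt-Rnr2. Of 8 mitochondrially encoded mRNAs tested, 7 were lower and 0 higher (median -4.21), and mt-Atp8 did not pass. mt-Nd6, from the opposite strand of the genome, was lower by less, with 1.96, 3.75 and 3.32 CPM, against 14.9, 21.8 and 17.7 CPM (6.04-fold). All rows of the mitochondrial genome held only 0.00103% ± 0.000127 of counts in the nucleus and 0.00594% ± 0.000383 in the cytoplasm (SD, n = 3), so these differences rest on few counts.

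Messenger RNAs of the ribosome were lower in the nucleus almost without exception. Rps2, a protein of the small subunit, had 263, 270.0 and 230.1 CPM in the nuclear libraries, against 1154, 1512 and 1450 CPM in the cytoplasmic ones (5.39-fold lower, log2 difference -2.43 ± 0.089, adjusted p = 5.23e-22). Rps12 was 5.02-fold lower (549, 559 and 498 CPM, against 3073, 2554 and 2435 CPM), and Rpl12 and Rplp0 of the large subunit were 4.1- and 3.83-fold lower. Of 79 ribosomal protein genes 78 were lower and 0 higher, with a median of -1.26, beside 29.0% lower over all genes. Proteins of the mitochondrial ribosome had 67 lower and 2 higher of 77 (median -0.98), with Mrps7 2.89-fold lower and Mrpl24 1.88-fold higher. Subunits of the respiratory chain coded in the nucleus had 69 lower and 2 higher of 75 (median -1.01). Within complex II the small subunits Sdhc and Sdhd were 3.28- and 2.82-fold lower, while the large subunit Sdha had 191, 182 and 169.5 CPM in the nucleus, against 126, 109 and 113 CPM in the cytoplasm (1.56-fold higher, adjusted p = 1.20e-08). The other higher one was Ndufs1, a large subunit of complex I, whose log2 difference of 0.26 did not pass when some single libraries were left out. The proteasome had 35 of 36 members lower and 0 higher (median -0.78), with Psmd8 2.57-fold lower.

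Translation factors divided in a like manner. Eif5a, which helps the ribosome past difficult stretches, had 422, 446 and 344 CPM in the nuclear libraries, against 992, 1176 and 1127 CPM in the cytoplasmic ones (2.72-fold lower), and Eif4e, which binds the cap, had 94.6, 95.4 and 80.8 CPM, against 228, 231 and 221 CPM (2.51-fold lower). Eif4g1, the scaffold that Eif4e binds, had 1892, 1810 and 2031 CPM, against 434 to 504 CPM in the cytoplasmic ones (4.08-fold higher, log2 difference 2.03 ± 0.10, adjusted p = 5.76e-19). Eif3a and Eif5b, both large proteins, were 2.21- and 2.33-fold higher. Of 41 factors 30 were lower and 6 higher (73.2% and 14.6%, beside 29.0% and 28.6% over all genes, median -0.84). Chaperonins and heat shock proteins, most of them cytosolic, had 12 lower and 1 higher of 17 (70.6% and 5.88%, median -0.35). Hspe1, the mitochondrial co-chaperonin, was 2.43-fold lower. Both chains of ferritin were lower. Ftl1 had 158, 188 and 162 CPM in the nucleus, against 1522, 2135 and 1789 CPM in the cytoplasm (10.7-fold lower, adjusted p = 8.06e-21), and Fth1 had 84.0, 116 and 94.5 CPM, against 963, 1032 and 1025 CPM (10.3-fold lower, adjusted p = 1.43e-20). For neither chain of this iron store did the groups overlap, and reads of these and of ribosomal protein genes can be shared with their processed pseudogenes. Coa5 and Ap3s1 were 8.09- and 6.48-fold lower.

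**Figure D3:**
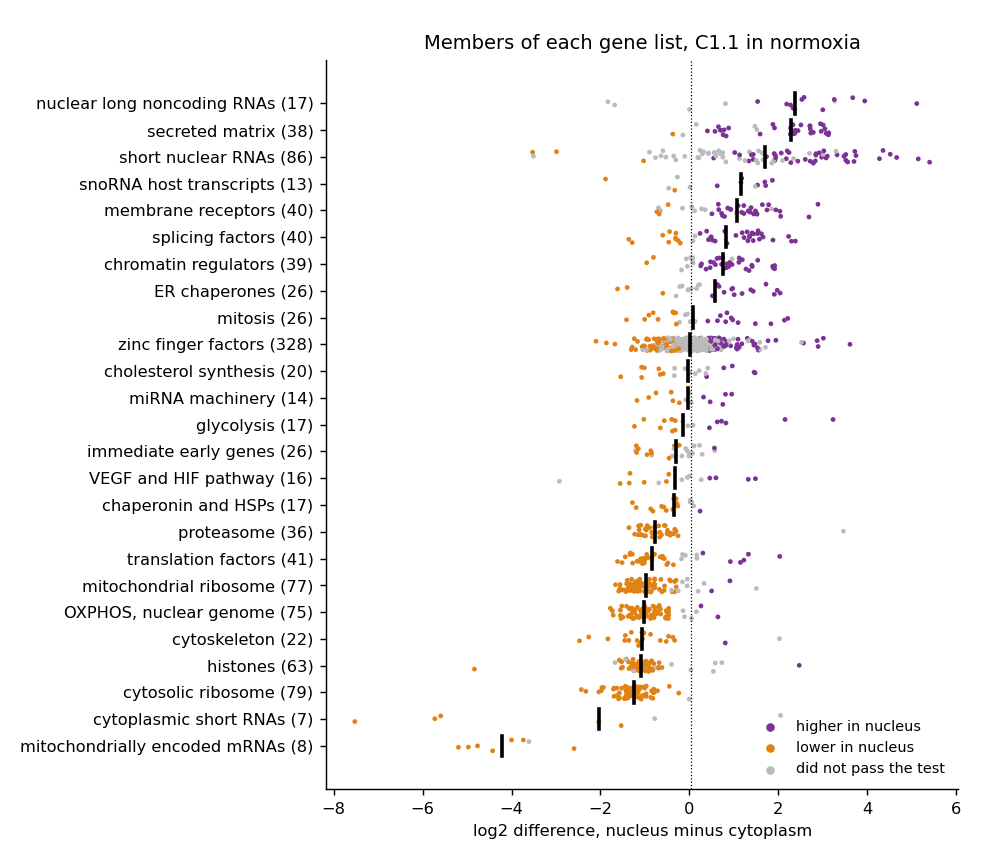
Log2 difference of nucleus minus cytoplasm for each member (points) of the gene lists in C1.1 in normoxia, coloured by call as higher (purple), lower (orange) or not passed (grey), with the list median (black bar), the number tested in brackets and the median of all genes (dotted line). Nuclear long noncoding RNAs (median 2.37) and secreted matrix genes (2.28) stand at the top, and cytosolic ribosome (-1.26) and mitochondrially encoded mRNAs (-4.21) at the bottom.

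Messenger RNAs of secreted matrix proteins were higher in the nuclear fraction. Hspg2, which codes for the basement membrane proteoglycan perlecan, had 1073, 1082 and 1195 CPM in the nuclear libraries, against 140.5, 134 and 131 CPM in the cytoplasmic ones (8.25-fold higher, log2 difference 3.04 ± 0.14, adjusted p = 1.43e-19). Col5a2 had 615, 622 and 658 CPM, against 105, 93.6 and 76.4 CPM (6.89-fold), and Col3a1 had 218, 219 and 249.5 CPM, against 40.9, 32.5 and 30.3 CPM (6.62-fold). Lamb1, a laminin chain, was 4.91-fold higher, and Col1a1 and Col1a2, the chains of type I collagen, were 5.07- and 5.01-fold higher. The groups of these genes did not overlap. Of 38 matrix genes tested 32 were higher and 1 lower (84.2% and 2.63%, beside 28.6% and 29.0% over all genes), with a median of 2.28. They took 2.31% ± 0.0943 of counts in the nucleus, against 0.555% ± 0.0524 in the cytoplasm (SD, n = 3). The lower one was Timp2, a short metalloproteinase inhibitor, with 353, 347 and 305 CPM, against 441, 447 and 415 CPM (log2 difference -0.37), which did not pass with other scalings.

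Receptors of the cell surface and folding enzymes of the endoplasmic reticulum lay in the same direction. Lrp1, a large endocytic receptor, had 2818, 2769 and 3191 CPM in the nuclear libraries, against 420.0, 385 and 379 CPM in the cytoplasmic ones (7.41-fold higher, adjusted p = 9.38e-20), and Igf2r, Itga5 and Notch2 were 6.44-, 4.14- and 3.84-fold higher. Of 40 receptors 28 were higher and 3 lower (70% and 7.5%, beside 28.6% and 29.0% over all genes, median 1.07). The lower ones were all receptors of the TGF-beta superfamily. Bmpr2 had 118, 127 and 115 CPM, against 204, 180.3 and 212 CPM (log2 difference -0.73 ± 0.13, adjusted p = 6.67e-06), Tgfbr2 had a log2 difference of -0.68, and Tgfbr1 had one of -0.48 that did not pass with RLE factors or DESeq2. Hsp90b1, the chaperone of the endoplasmic reticulum also called Grp94, had 1188, 1156 and 1195 CPM, against 378, 249.8 and 233 CPM (4.11-fold higher, adjusted p = 4.38e-11). Hspa5, its partner also called BiP, had 558, 518 and 548 CPM, against 179, 143 and 111 CPM (3.75-fold), and Hyou1 was 3.93-fold higher. The small translocon subunits Sec61g and Sec61b were 3.07- and 2.64-fold lower instead. Of 26 members 14 were higher and 3 lower (53.8% and 11.5%, median 0.57).

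The members of these lists differed in size, and over all protein-coding genes the difference ran with coding length. The median coding part had 429 bases in the ribosomal protein list and 405 in the respiratory chain list, against 4376 in the matrix list, 2730 in the receptor list and 6165 in the list of chromatin regulators. Lists of like length also lay in opposite directions. The list of endoplasmic reticulum chaperones had 1249.5 bases and a median log2 difference of 0.57. The cytoskeleton and translation factor lists had 1128 and 1122 bases and medians of -1.06 and -0.84. Among 12145 protein-coding genes the median log2 difference was -0.86 in the quintile with the shortest coding part (at most 675 bases), -0.48, -0.15 and 0.15 in the next ones, and 0.65 in the quintile with the longest (2463 bases or more). At least 2-fold lower genes made up 40% of the shortest quintile and 0.907% of the longest, and at least 2-fold higher ones 5.67% and 30%. Spearman's rho across genes was 0.48 with coding length, 0.39 with the number of exons, 0.27 with transcript length and -0.05 with the length of the 3' untranslated part. Restricted to the 7820 genes above the median level, rho with coding length was 0.63. Genes are not independent replicates, all values come from the same 6 libraries, and longer genes also carry more counts.

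At a given coding length, genes for proteins with a hydrophobic stretch near the N terminus, as signal peptides have, lay higher than the rest. In the shortest quintile their median log2 difference was -0.34 (394 genes), against -0.99 in proteins with no such stretch and no membrane-like stretch elsewhere (1869 genes). In the longest quintile it was 1.32 (360 genes), against 0.52 (1749 genes). Proteins with a membrane-like stretch elsewhere lay between, at -0.62 in the shortest and 0.88 in the longest quintile. Over all lengths 749 of 1935 genes with a hydrophobic N terminus were higher and 307 lower, against 1970 and 3674 of 8864 with neither stretch. The stretch was read from the translated coding sequence as a window of 12 residues with a mean hydropathy of at least 2 within the first 40, and it is a description and no prediction of a signal peptide.

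**Figure D4:**
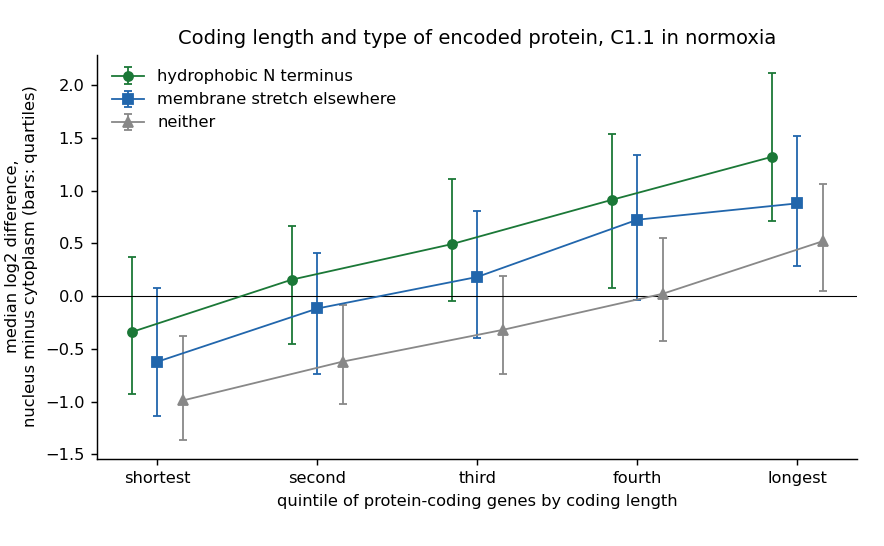
Median log2 difference of nucleus minus cytoplasm (points, with quartiles as bars) in quintiles of protein-coding genes by coding length, for proteins with a hydrophobic N terminus (green), a membrane-like stretch elsewhere (blue) or neither (grey), C1.1 in normoxia. Each class runs upward with length, and the green points lie above the grey ones in every quintile, from -0.34 against -0.99 in the shortest to 1.32 against 0.52 in the longest.

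Among the genes that were higher were some that code for very large proteins. Flna, which codes for the actin crosslinker filamin A, had 4657, 4708 and 5446 CPM in the nuclear libraries, against 530.1, 554 and 461 CPM in the cytoplasmic ones (9.59-fold higher, adjusted p = 1.43e-20). Plec, which codes for the cytoskeletal linker plectin, had 2516, 2467 and 2835 CPM, against 231, 283 and 257 CPM (10.1-fold, adjusted p = 1.10e-20). Ahnak had 16246, 15952 and 18052 CPM, against 2125, 1970 and 2078 CPM (8.14-fold, adjusted p = 1.43e-19). None of these 3 has groups that overlap. Listed genes of the cytoskeleton, actins and tubulins among them, lay mostly the other way, and of 22 members 20 were lower and 1 higher (90.9% and 4.55%, beside 29.0% and 28.6% over all genes, median -1.06). Their median coding part had 1128 bases, within the third quintile of coding length. Actb had 3500, 3588 and 3229 CPM, against 7709, 10173 and 8669 CPM (2.57-fold lower, adjusted p = 2.95e-14), and Tmsb4x, which binds free actin, had 96.2, 106 and 80.2 CPM, against 620.4, 542 and 405 CPM (5.55-fold lower). Vim, the intermediate filament of mesenchyme, was the one that was higher, with 3428, 3488 and 3716 CPM, against 1969, 2055 and 2064 CPM (1.75-fold). Lgals1, a small lectin and among the most counted cytoplasmic genes, was 2.06-fold lower.

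Genes of nuclear function did not behave alike, beside 28.6% higher and 29.0% lower over all genes. Replication-dependent histones, whose mRNAs carry no poly(A) tail, were lower in the nucleus in 53 of 63 rows and higher in 1 (median -1.08), as in Hist4h4 with 247, 233 and 239.9 CPM, against 798, 717 and 525 CPM (2.84-fold lower). Copies of histone genes are near-identical, so single rows are uncertain. The splicing list holds splicing factors and other genes such as Ogt, many of which keep introns in part of their transcripts. It had 27 higher and 10 lower of 40 (67.5% and 25%, median 0.82), and it does not stand for splicing factors in general. Ccnl2, a cyclin of the speckles, had 164, 151 and 179.6 CPM in the nucleus, against 28.2, 34.4 and 32.4 CPM in the cytoplasm (5.21-fold higher, adjusted p = 6.55e-19), and Rbm25 had 482, 458 and 507 CPM, against 109, 101 and 99.3 CPM (4.69-fold). Srsf1 went the other way, with 526, 482 and 498 CPM, against 1291, 1345 and 1240 CPM (2.57-fold lower, adjusted p = 1.01e-16), together with Srsf9, Tra2a and Srsf3 (-1.29, -0.60 and -0.47 on the log2 scale). Chromatin regulators had 29 higher and 2 lower of 39 (median 0.75), with the remodellers Chd4 and Chd6 3.69- and 3.77-fold higher and Suz12 and Yy1 1.95- and 1.75-fold lower. Genes named as zinc finger factors showed no lean, with 58 higher and 57 lower of 328 (17.7% and 17.4%, median 0.01, up to 0.22 under other scalings). They were called less often in both directions than genes in general, and 213 did not pass. Zfp692 was 5.91-fold higher and Zfp706 4.29-fold lower.

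In several listed pathways genes were called in both directions, beside 28.6% higher and 29.0% lower over all genes. Among mitotic genes 12 were higher and 9 lower of 26 (median 0.07). The large proteins Cenpe, Mki67 and Anln were 4.63-, 4.39- and 3.56-fold higher, and Mki67 had 1694, 1755 and 1931 CPM, against 401, 389.6 and 436 CPM. Ube2c, Mad2l1 and Birc5, which are small, were 2.67-, 2.01- and 1.88-fold lower. In glycolysis 6 were higher and 8 lower of 17, with a median of -0.15 that turned to 0.06 under other scalings. The hexokinases Hk1 and Hk2 were 1.65- and 1.54-fold higher and the smaller enzymes Pgam1 and Tpi1 2.36- and 2.04-fold lower, and Gapdh had 1235, 1175 and 1156 CPM, against 1584, 1623 and 1493 CPM (1.32-fold lower, adjusted p = 2.41e-04). Cholesterol synthesis had 5 higher and 7 lower of 20 (25% and 35%, median -0.04, 0.17 with DESeq2 or RLE factors), with Idi1, an isomerase of the pathway, 2.92-fold lower. Immediate early genes, whose mRNAs are short-lived, had 1 higher and 9 lower of 26 (median -0.31). Myc was the higher one (109, 108 and 106 CPM, against 76.1, 72.9 and 69.7 CPM, 1.48-fold), and Klf6 was 2.29-fold lower.

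Genes of the VEGF and HIF pathways were called in both directions. Vegfa had 58.9, 48.8 and 61.6 CPM in the nuclear libraries, against 40.3, 42.8 and 40.3 CPM in the cytoplasmic ones, 1.37-fold higher in the nucleus (log2 difference 0.46 ± 0.12, adjusted p = 8.95e-04). The groups did not overlap, although the lowest nuclear library stood close to the highest cytoplasmic one. The coreceptors Nrp1 and Nrp2 had 241, 226 and 237 CPM and 300.0, 298 and 322 CPM in the nucleus, against 108, 93.9 and 80.2 CPM and 120.2, 102 and 107 CPM in the cytoplasm (2.5- and 2.79-fold higher). The oxygen sensors Egln1, Egln2 and Egln3, which hydroxylate HIF, were 2.53-, 2.02- and 2.95-fold lower, and Vhl, which marks hydroxylated HIF for destruction, had 21.8, 22.5 and 16.4 CPM, against 54.7, 50.3 and 49.8 CPM (2.55-fold lower, adjusted p = 1.09e-11). Of 16 listed genes 4 were higher and 6 lower (25% and 37.5%, beside 28.6% and 29.0% over all genes, median -0.32). Kdr, the main VEGF receptor, did not pass the filter on low counts.

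Genes of the miRNA machinery were called in both directions. Dgcr8, the RNA-binding partner of Drosha in the nucleus, had 127, 131 and 137 CPM in the nuclear libraries, against 68.1, 66.5 and 70.0 CPM in the cytoplasmic ones (1.93-fold higher, adjusted p = 2.85e-11). Xpo5, the exporter of hairpins, was 1.68-fold higher, and the GW182 proteins Tnrc6a and Tnrc6c were 1.38- and 1.75-fold higher. Ago2, the slicing Argonaute, had 169, 193 and 154 CPM, against 292, 319 and 360.2 CPM (1.89-fold lower, adjusted p = 2.33e-08), and Ago1 was 2.26-fold lower. Drosha had a log2 difference of -0.37, which did not pass with other scalings. Of 14 genes 5 were higher and 6 lower (35.7% and 42.9%, beside 28.6% and 29.0% over all genes). Their median of -0.04 turned to 0.06 under other scalings. These values are of the mRNAs and say nothing of where the proteins were.

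The direction was the same for most genes in libraries that the comparison does not share. Of the 4772 genes higher in the nucleus of C1.1 in normoxia, 98.1% had the same sign after 2h of hypoxia and 95.3% after 24h, and 81.9% and 74.1% were also called there. Of the 4836 lower genes 98.7% and 94.5% had the same sign, and 85.9% and 79.8% were called. Calls in the opposite direction were 3 and 2 genes at 2h, and 43 and 74 genes at 24h. In C166 in normoxia 97.1% of the higher and 97.4% of the lower genes had the same sign, and 16 and 7 were called the other way. The C166 cytoplasmic library of replicate 1 stood apart, with 11903 rows counted, against 16393 and 16712 in its group, and without it the shares with the same sign were 98% and 98.7%.

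A test of the difference between the lines (C1.1 minus C166) asked which genes were distributed otherwise after the deletion. Of 16682 genes, 55 (0.33%) were called higher and 56 (0.336%) lower in C1.1, and 2069 had an unadjusted p below 0.05. Genes higher in C1.1 made up 49.5% of those called, against 64.2% with DESeq2, 71.8% with RLE and 80.1% with upper-quartile factors, and the median difference over all genes was -0.15, and -0.04 with upper-quartile factors. Sms, the spermine synthase, had 93.4, 87.3 and 97.1 CPM in the nuclear libraries of C1.1, against 57.6, 52.0 and 50.2 CPM in its cytoplasmic ones, and 75.9, 72.2 and 77.7 CPM in the nucleus of C166, against 130.1, 122 and 133 CPM in its cytoplasm. The gene was higher in the nucleus of C1.1 (0.80) and lower in that of C166 (-0.77), a difference between the lines of 1.56 ± 0.14 (adjusted p = 2.32e-09). Mapk11, a p38 kinase, had 29.2, 23.1 and 30.7 CPM in the nucleus of C1.1, against 9.36, 10.7 and 11.8 CPM in its cytoplasm, and overlapping values in C166 (17.7, 16.1 and 14.9 CPM, against 17, 16.3 and 18.1 CPM), a difference between the lines of 1.46 ± 0.27 (adjusted p = 0.00221). Mcts1, a translation factor, had one of 1.46 ± 0.25 (adjusted p = 0.00111). In the other direction, Ahnak2 was higher in the nucleus of both lines, by 2.83 in C1.1 and 4.23 in C166, a difference of -1.41 ± 0.29 (adjusted p = 0.0104). Col18a1, a basement membrane collagen, had 35.7, 37 and 36.7 CPM in the nucleus of C1.1, against 9.36, 9.71 and 10.7 CPM in its cytoplasm, and 172, 181 and 197 CPM in the nucleus of C166, against 15.5, 25.5 and 33.6 CPM in its cytoplasm (difference -1.0 ± 0.23, adjusted p = 0.0256). The count of genes called was 379 without C166 cytoplasmic replicate 3, 173 without its replicate 2 and 90 without its replicate 1. It was 61, 74 and 51 without nuclear replicates 1, 2 and 3 of C1.1, 72 without its cytoplasmic replicate 3, and 69, 50 and 52 without nuclear replicates 1, 2 and 3 of C166. Col18a1 did not pass without C166 cytoplasmic replicate 1 (adjusted p = 0.103) or without several other libraries (highest adjusted p = 0.109), and with each library left out in turn Sms, Mapk11, Mcts1 and Ahnak2 passed. Vegfa and Sfmbt2 did not pass this test (adjusted p = 0.714 and 0.499), and C1.1 being a single clone, a difference of the clone and one of the deletion cannot be told apart.

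**Figure D5:**
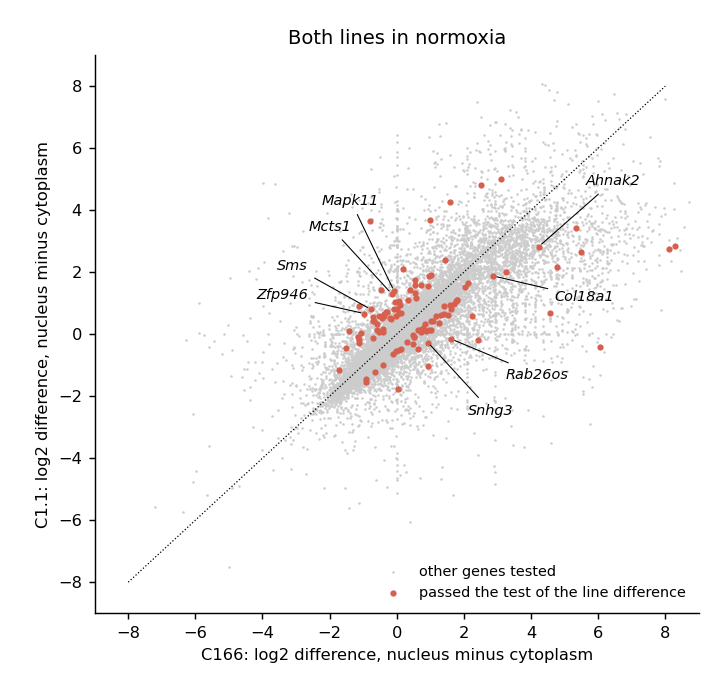
Log2 difference of nucleus minus cytoplasm of each tested gene in C1.1 (vertical) against the same in C166 (horizontal), both in normoxia, with the 111 genes that passed the test of the difference between the lines in red and equality as a dotted line. Most genes lie along the line, and Sms lies above it, at 0.80 in C1.1 against -0.77 in C166.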

How the data were processed

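Paired-end reads of stranded rRNA-depleted libraries were aligned by the authors to GRCm38 with Ensembl genes; how the counting used strand is not given in the sources used here. The submitters' processing notes name Bowtie2 2.2.2, TopHat2 2.0.11, Cufflinks 2.2.1, featureCounts and edgeR without giving each a role. The authors deposited integer counts per gene with no normalization, which were used here. Their normalized counts (36 columns) and their DESeq2 results for hypoxia, with mean levels, fold changes, standard errors and p-values, were not used.

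All 36 libraries in 12 groups were fitted with edgeR 4.0.16 in R 4.3.3 (filterByExpr by group, TMM, quasi-likelihood F-test, Benjamini-Hochberg over 16682 genes), and genes were called at an adjusted p below 0.05. The standard error is the absolute log2 difference divided by the root of F. Alternatives were DESeq2 1.42.0, RLE and upper-quartile factors, other filters, other sets of libraries, the replicate block and leaving out each library. The fit was tested on simulated data. Gene structure and coding sequences came from GENCODE M21, which matched 24311 of 26400 symbols. No replicate is a copy of another, since pairs varied 3.36 to 23.3 times as much as Poisson sampling would give.

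The genes, lists and tests were chosen with earlier results of these data known. Genes named are the 10 with the largest difference in each direction among called genes above the median level with groups apart and no predicted-gene symbol, up to 4 members of each list in each direction, the 5 most counted genes of each fraction, a few fixed genes, and the 5 strongest in each direction for the difference between the lines. Members named to complete a count of 5 or fewer, and hairpin rows, were chosen after their values were seen. Listed symbols with no row were not analysed here.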

Additional observations from a re-analysis of the deposited data

Results flagged for a closer look

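The difference of nucleus minus cytoplasm between the lines (C1.1 minus C166) passed the test for the following named genes, on the log2 scale. Above 0 were Zfp946 at 1.63 ± 0.34 SE (adjusted p = 0.0102), Sms at 1.56, Mapk11 at 1.46, Mcts1 at 1.46, Zfp943 at 1.26 (adjusted p = 0.0276) and Hnrnph1, a splicing factor, at 0.61 ± 0.10 (adjusted p = 9.50e-04). Hnrnph1 had 743, 704 and 785 CPM in the nucleus of C1.1, against 258, 257 and 251 CPM in its cytoplasm, and 887, 810.3 and 956 CPM in the nucleus of C166, against 439, 478 and 470.1 CPM in its cytoplasm, so it was higher in the nucleus of both lines. Below 0 were Rab26os at -1.79 ± 0.39 (adjusted p = 0.019), Ahnak2 at -1.41, RP23-239L21.4 at -1.25 (adjusted p = 0.0283), Snhg3 at -1.20 ± 0.26 (adjusted p = 0.0142), Col18a1 at -1.0 and Snhg8 at -0.80 (adjusted p = 0.0401). Snhg3 had 69.2, 76.8 and 68.9 CPM in the nucleus of C1.1, against 106, 79.7 and 73.0 CPM in its cytoplasm, and 54.5, 50.2 and 47.7 CPM in the nucleus of C166, against 22.2, 27.6 and 30.1 CPM in its cytoplasm. Without C166 cytoplasmic replicate 1, Snhg8, Zfp943, RP23-239L21.4 and Col18a1 did not pass (adjusted p = 0.152, 0.14, 0.106 and 0.103), and each of these 4 also did not pass without several other libraries. Rab26os did not pass without C1.1 nuclear replicate 1 or 2 or C166 nuclear replicate 3 (adjusted p = 0.0567, 0.0564 and 0.0699). Snhg3 did not pass without C1.1 cytoplasmic replicate 1 or nuclear replicate 3 (adjusted p = 0.0671 and 0.0581). Zfp946, Sms, Mapk11, Mcts1, Hnrnph1 and Ahnak2 passed with each of the 12 libraries left out in turn. That holds for left-out libraries only. Over all alternatives, other scalings and filters among them, 8 of the genes named here lost their call, so some of these last ones did too.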

How the results depend on the processing

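The calls of nucleus against cytoplasm stayed within 1.5 times of their number under each alternative, and leaving out 1 library in turn gave 8721 to 9051 genes in place of 9608. At least 2-fold higher genes then numbered 2779 to 2977, and lower ones 1969 to 2304, in place of 3129 and 2275. These counts moved more with the scaling. With RLE factors, upper-quartile factors and DESeq2, 3783, 3773 and 3917 were at least 2-fold higher and 1520, 1527 and 1571 lower. The difference between the lines was less stable. It called 260 genes with DESeq2, 232 with no filter on low counts and 51 with only the 12 libraries compared, in place of 111, and 50 to 379 when 1 library was left out. The value of Sfmbt2, nucleus minus cytoplasm, turned to 0.14 with DESeq2 and RLE factors, 0.13 with upper-quartile factors, 0.012 with no filter, and ran from -0.149 to 0.0203 when 1 library was left out, none of them called. The value of Rab26os, nucleus minus cytoplasm, was -0.16 and turned to 0.0482 with DESeq2, 0.0488 with RLE and 0.0446 with upper-quartile factors, again with no call. Of 193 named genes 12 lost their call under some alternative, and of the 12 named for the difference between the lines 8 did. Why these moved was not tested. Nuclear and cytoplasmic libraries of the same number did not deviate together (correlation 0.027, 0.030 and 0.0016). Fractions of a shared culture that adds little spread would look the same, so whether the numbers pair them is not settled. With the replicate block the comparison of fractions called 9164 genes and that of the lines 83. Rows with few counts, miRNA hairpins and mitochondrial genes above all, limit what could be detected.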
